A study of Rattus norvegicus with 30 samples.

Results

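The 48 h change of vehicle-treated rat hepatocytes in culture was measured as the 5 arrays labelled DMSO at 48 h against the 5 arrays labelled DMSO at 24 h, which are 10 of the 30 arrays of the series. The arrays were chosen by title and not by a measured value, although earlier results of these data were known. The cells were frozen primary hepatocytes of male Sprague Dawley rats, bought from a supplier, thawed, attached to collagen and overlaid with Matrigel. On day 3 of culture each well received vehicle or methapyrilene, an antihistamine known as a rat liver carcinogen, and RNA was taken 24 or 48 h later. The vehicle is labelled 1% DMSO, but the protocol gives that share for the concentrated dosing solutions, so how much reached the cells is not certain. The other 20 arrays carry 3 uM or 100 uM methapyrilene at the same times, with 5 arrays per group, and they are used here only where treated wells are set beside the vehicle wells. The 5 replicates are separate wells, no animal or pool of animals is named, and the p-values therefore measure the spread between wells.

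Hepatocytes make most plasma proteins, clear drugs and hormones through cytochrome P450 enzymes, and build and export lipids. Once taken from the liver they are known to lose parts of this programme with time in culture. Collagen and a Matrigel overlay are used to slow that loss, and DMSO is itself used in some protocols to hold hepatocytes in a differentiated state. The comparison asks how far vehicle-treated wells changed within a day of culture.

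The deposited values were MAS5 signals, a linear brightness per probe set, and all fold changes below are differences of mean log2 signals. The 2% trimmed mean was 1500.6 on each DMSO array, and the median signal of the 10 arrays lay between 362 and 411. Pairwise correlations of log2 signals were 0.9741 to 0.9796 among the 24 h arrays, 0.9787 to 0.9821 among the 48 h arrays and 0.9725 to 0.978 between the times. The first principal component of the DMSO arrays held 19.05% of the variance and put the 24 h arrays (scores from -14.3 to -8.27) apart from the 48 h arrays (7.87 to 14.98). The 3' over 5' ratio of the beta-actin control probe sets also differed between the times. It was 2.80 to 3.27 at 24 h and 2.44 to 2.79 at 48 h, with no overlap, and time accounted for 0.587 of the variance of its logarithm over the 10 arrays. This ratio rises as RNA or its labelled copy is shortened, and its part in the results was not tested beyond fits with it as a covariate, whose counts stand beside most of the gene groups.

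All 14 hepatocyte markers on the array were above the array median in all 10 DMSO arrays, at a median percentile of 99.8. Alb, serum albumin, was among the brightest probe sets, with means of 85970 ± 11100 (SD) at 24 h and 86650 ± 6370 at 48 h (n = 5 each). Of the 14, 3 were lower at 48 h at an adjusted p under 0.05 in limma and 0 higher (21.4%, against 4.48% of all genes). They were Apoa2 (log2 fold change -1.17), Tat (-0.51) and Asgr1 (-0.26, adjusted p = 0.0151). A negative sign was held by 11 of the 14. With the actin ratio as a covariate in the 10 DMSO arrays 2 passed, and Asgr1 did not (adjusted p = 0.104). Markers of other liver cells were mostly dim. Among markers of Kupffer cells and leukocytes, 4 of 15 were above the median in all 10 arrays and 4 in none, the latter being Adgre1, Itgam, Cd163 and Ptprc. Of the sinusoidal endothelial markers 2 of 9 were above it in all 10 arrays and 5 in none, of the stellate cell and fibroblast markers 3 of 13 and 7, and of the cholangiocyte markers 2 of 7 and 3.

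Between 24 and 48 h, 458 of 10222 genes tested (4.48%) passed an adjusted p of 0.05 in limma, 263 of them higher at 48 h (2.57%) and 195 lower (1.91%). Such genes are named as called, and rose and fell are used only of them. Each count or share of list members called below stands against these 4.48% of all genes. The changes were mostly small. At least 1.5-fold were 57 of the higher and 47 of the lower genes, and at least 2-fold were 17 and 19. The median log2 fold change over all genes was 0.0020, with quartiles of -0.098 and 0.113. An unadjusted p under 0.05 was reached by 1602 of the 10222 genes. For 201 of the higher and 161 of the lower genes, all 5 arrays at 48 h lay on the same side of all 5 arrays at 24 h, while for 62 and 34 the arrays overlapped. Of the genes not called, arrays lay apart for 145 with higher and 153 with lower signals at 48 h, and overlapped for 9466. Arrays that lie apart are therefore not a mark of called genes alone. The genes named as the 15 largest changes each way were taken from called genes with arrays apart. Their non-overlap is therefore no further result. In a fit of the 10 DMSO arrays alone with the actin ratio as a covariate, here named the actin fit of these arrays, 76 genes were called, 72 of them among the 458, and all 458 had the same sign. Of the 116 named genes that were called, 37 passed in that fit, and 85 passed whichever single array was left out.

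**Figure D1:**
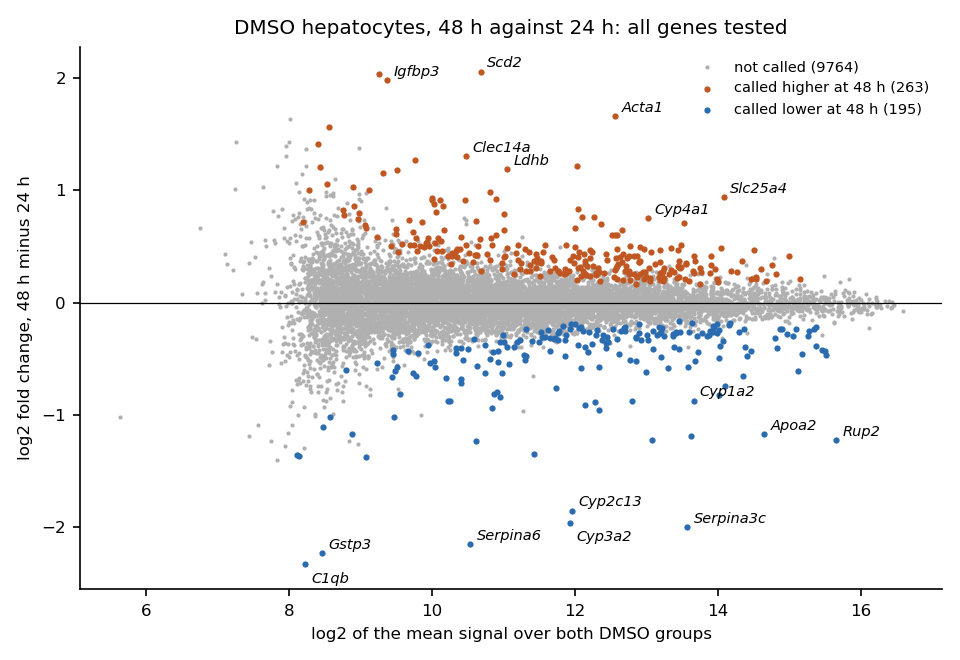
Log2 fold change of DMSO wells at 48 h minus 24 h (vertical axis) against log2 of the mean signal over both groups (horizontal axis) for the 10222 genes tested. Orange points are the 263 genes called higher and blue points the 195 called lower at an adjusted p under 0.05 in limma, and grey points are the genes not called, most of them within a narrow band around 0 that widens at low signal.

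Drug-metabolising cytochrome P450 genes of families 1 to 3 were lower at 48 h or did not pass. Of 24 tested, 9 fell and 0 rose (37.5% called, against 4.48% of all genes), and the list's median log2 fold change was -0.14. The 24 include Por, the electron donor of the P450 enzymes. Cyp3a2, a steroid and drug hydroxylase of rat liver, gave signals of 5768, 6302, 6524, 5747 and 6673 at 24 h and 1437, 1785, 1343, 1439 and 2071 at 48 h. All 48 h arrays lay below all 24 h arrays, and limma gave a log2 fold change of -1.96 ± 0.11 (SE, adjusted p = 2.75e-15). Cyp2c13, another steroid hydroxylase, read 5541, 6760, 6455, 5830 and 6597 at 24 h and 1751, 1740, 1876, 1709 and 1567 at 48 h. Its arrays did not overlap either, and its log2 fold change was -1.85 ± 0.090 (SE, adjusted p = 3.5e-16). Its probe set carries the suffix of those that can bind related transcripts, so signal of a near relative cannot be told apart.

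Cyp2c23, an arachidonic acid epoxygenase, read 5522, 6467, 6141, 5578 and 5864 at 24 h and 3203, 3203, 3025, 3105 and 3206 at 48 h. It had a smaller drop with little spread at 48 h, and the log2 fold change was -0.91 ± 0.082 (SE, adjusted p = 1.09e-09). Cyp1a2, which oxidises caffeine and aromatic amines, read 19077, 18968, 15830, 14466 and 15353 at 24 h and 8837, 8907, 8361, 8965 and 10527 at 48 h. The times did not overlap, and limma gave a log2 fold change of -0.87 ± 0.096 (SE, adjusted p = 9.49e-08). The other called members were Cyp2e1, the ethanol-oxidising form (-0.93 ± 0.13, adjusted p = 1.12e-05), Cyp3a9 (-0.88 ± 0.11, adjusted p = 7.96e-07), Cyp2c12 (-0.87 ± 0.13, adjusted p = 2.1e-05), Cyp2c7 (-0.80 ± 0.12, adjusted p = 4.24e-05) and Cyp2c11 (-0.58 ± 0.10, adjusted p = 0.000386), and in each the arrays of the times did not overlap.

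The remaining 15 P450-list genes did not pass the test. Cyp1a1, the inducible partner of Cyp1a2, showed a log2 difference of 0.077 (adjusted p = 0.73) in limma. The values were 0.076 (adjusted p = 0.66) for Cyp3a23-3a1, -0.05 (adjusted p = 0.82) for Cyp2c6v1, -0.051 (adjusted p = 0.85) for Cyp2c22, -0.16 (adjusted p = 0.2) for Cyp2d2, and -0.033 (adjusted p = 0.9) for Por, the electron donor of the P450 enzymes. The count of 9 was the same with arrays centred on their medians and with the actin ratio as a covariate over all 30 arrays. It was 8 in a fit of the 10 DMSO arrays alone with that covariate, in which 76 genes were called in all. The genes of the family are alike in sequence, so the share of each close relative in a probe set's signal is uncertain.

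Of 25 conjugation enzymes 3 rose and 0 fell (12% called, median 0.081). They were the glutathione transferases Gstm7 (0.58 ± 0.12, adjusted p = 0.00209), Gsta4 (0.37 ± 0.081, adjusted p = 0.00362) and Gsta3 (0.21 ± 0.053, adjusted p = 0.0127). The 48 h arrays of each lay above all their 24 h arrays. With arrays centred on their medians 1 of them was called, and in the actin fit of the 10 DMSO arrays Gsta4 was (0.40, adjusted p = 0.0141). Gstp3, a pi class glutathione transferase outside that list, read 570, 659, 558, 533 and 562 at 24 h and 217, 111, 111, 93.6 and 111 at 48 h. Its signal at 48 h was below the array medians, and its log2 fold change was -2.23 ± 0.38 (SE, adjusted p = 0.000189). Of 16 hepatocyte transporters 2 fell (12.5% called), the efflux pumps Abcg2 (-0.25 ± 0.061, adjusted p = 0.0119) and Abcc2 (-0.23 ± 0.063, adjusted p = 0.0233). The call of Abcc2 was lost without any of 5 of the 10 arrays (24 h replicates 3 and 5, 48 h replicates 2, 4 and 5; adjusted p up to 0.0903), and neither passed with arrays centred on their medians or in the actin fit of the 10 DMSO arrays (adjusted p = 0.557 for both). Of 13 bile acid genes limma called 0, with 3 at an unadjusted p under 0.05.

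**Figure D2:**
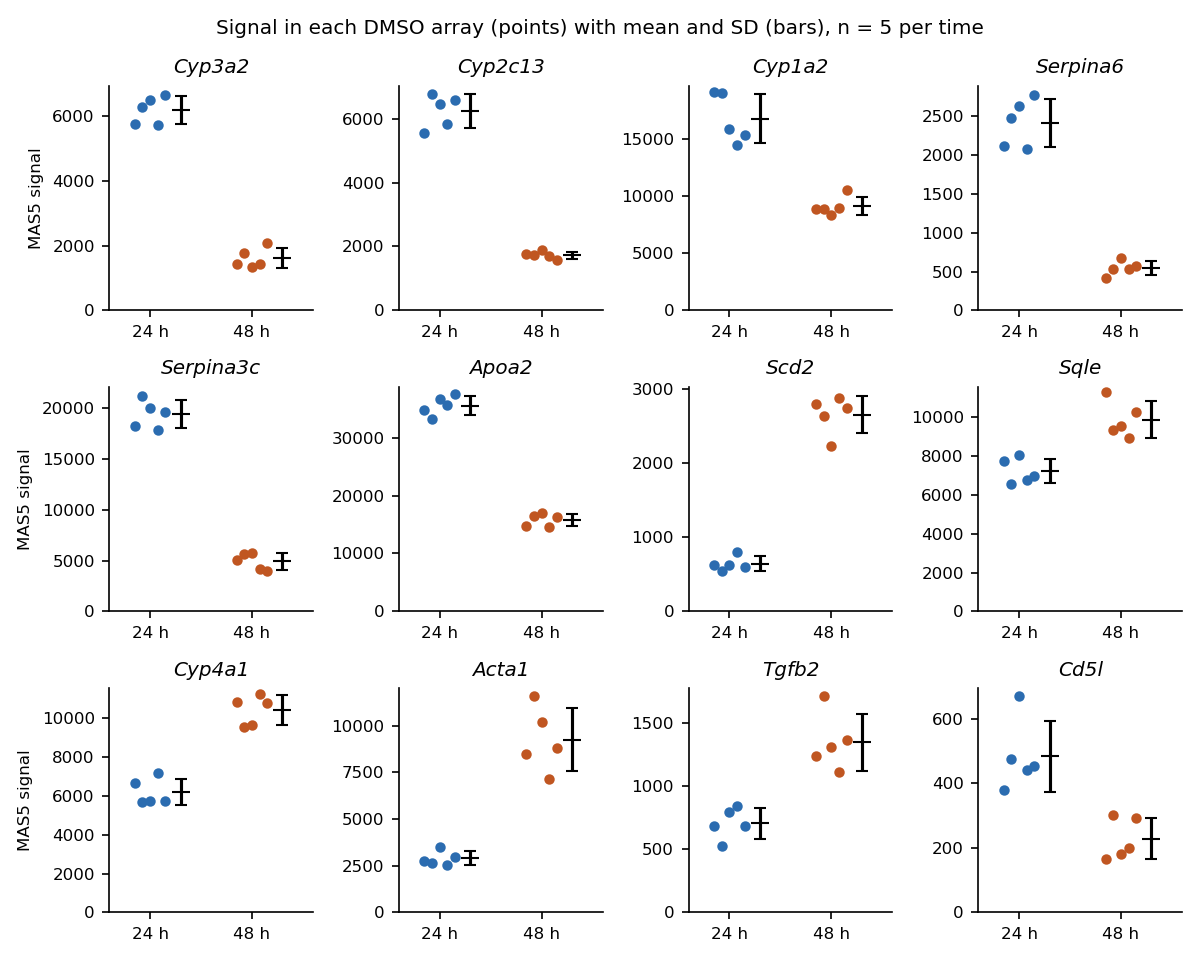
MAS5 signal (vertical axes, linear, from 0) of 12 genes in each DMSO array at 24 h (blue) and 48 h (orange). Points are single arrays in replicate order and bars the mean ± SD of 5 arrays, and in all 12 genes the 5 arrays of 48 h lie entirely above or entirely below those of 24 h.

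Secreted liver proteins split between a few deep falls and many that did not pass. Of 31 plasma proteins and clotting factors 6 fell and 0 rose (19.4% called, against 4.48% of all genes, median -0.047). Serpina6, the corticosteroid-binding globulin, read 2115, 2481, 2639, 2074 and 2774 at 24 h and 419, 539, 674, 532 and 571 at 48 h. Its arrays lay apart, which makes it lower in each of the 5 array runs, and the log2 fold change was -2.15 ± 0.14 (SE, adjusted p = 4.18e-13). A run here is a block of consecutive array numbers in the titles that holds 1 array of every group. The labels do not say that such blocks were processed together. The complement component C9 read 7029, 8791, 9938, 10336 and 10115 at 24 h and 5110, 5367, 5729, 4739 and 4123 at 48 h. The arrays did not overlap, and limma gave a log2 fold change of -0.88 ± 0.096 (SE, adjusted p = 8.08e-08). Smaller falls were seen in Serpind1, heparin cofactor (-0.63 ± 0.14, adjusted p = 0.00464), Plg, plasminogen (-0.40 ± 0.081, adjusted p = 0.00181), Serpinc1, antithrombin (-0.32 ± 0.060, adjusted p = 0.000678), and C8b, a complement subunit (-0.27 ± 0.060, adjusted p = 0.00529). Alb did not pass, at a log2 fold change of 0.018 (adjusted p = 0.98). In the actin fit of the 10 DMSO arrays 2 members of the list were called, Serpina6 (-1.99, adjusted p = 5.65e-05) and C9 (-0.79, adjusted p = 0.0381).

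Acute phase genes, which the liver raises in inflammation, were lower in 7 of 24 cases and higher in 1 (33.3% called, median -0.14). Serpina3c, a serine protease inhibitor, read 18262, 21210, 19994, 17846 and 19657 at 24 h and 5079, 5653, 5786, 4146 and 3929 at 48 h. The 48 h signals were far below every 24 h signal, and its log2 fold change was -1.99 ± 0.10 (SE, adjusted p = 3.78e-16). The related Serpina3l, outside the list, read 17986, 17455, 18973, 15255 and 17795 at 24 h and 8484, 8309, 7046, 7267 and 7327 at 48 h, and the log2 fold change was -1.19 ± 0.067 (SE, adjusted p = 7.41e-15). Hamp, hepcidin, the hormone that closes the iron exporter, read 2342, 2517, 2555, 2618 and 2637 at 24 h and 1385, 1889, 1148, 1241 and 1544 at 48 h, and limma gave a log2 fold change of -0.83 ± 0.14 (SE, adjusted p = 0.000193). Lcn2, the siderophore-binding lipocalin (-0.46 ± 0.087, adjusted p = 0.00065), and A2m, a broad protease inhibitor (-0.42 ± 0.093, adjusted p = 0.00445), fell less. Il1rn, the interleukin 1 receptor antagonist, also fell (-1.02 ± 0.25, adjusted p = 0.0124), although its call was lost without 24 h replicate 5 or 48 h replicate 5 (adjusted p up to 0.0676). Lbp, which carries bacterial lipopolysaccharide, was the called member that was higher (0.26 ± 0.079, adjusted p = 0.0482), with overlapping arrays. With the actin ratio as a covariate in the 10 DMSO arrays 2 of the list were called lower and 0 higher.

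Cxcl1, a neutrophil-attracting chemokine, read 2465, 3082, 4911, 4929 and 4476 at 24 h and 1286, 1591, 1624, 1902 and 1214 at 48 h. All 5 arrays of 48 h were lower, with a wide spread at 24 h, and its log2 fold change was -1.35 ± 0.19 (SE, adjusted p = 1.21e-05), a call that was lost with the actin ratio as a covariate in the 10 DMSO arrays (-0.996, adjusted p = 0.113). Of the 17 cytokine, chemokine and NF-kB genes it was the only one called lower, and Birc3, an inhibitor of apoptosis, was called higher (0.46 ± 0.11, adjusted p = 0.0129), which was lost without 24 h replicate 2 (adjusted p = 0.0639). Among 21 interferon response genes 3 fell and 2 rose (23.8% called). Isg15, a ubiquitin-like protein (-0.56 ± 0.12, adjusted p = 0.0024), and Usp18, its protease (-0.51 ± 0.11, adjusted p = 0.00366), were lower, while Ifit2, an antiviral RNA-binding protein, was higher (0.40 ± 0.081, adjusted p = 0.00185). In the actin fit of the 10 DMSO arrays limma called 0 of the list, with -0.40 for Isg15 (adjusted p = 0.395), -0.33 for Usp18 (adjusted p = 0.435) and 0.53 for Ifit2 (adjusted p = 0.0507).

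Some genes known from macrophages fell. C1qb, a complement subunit made by macrophages, read 271, 493, 547, 469 and 558 at 24 h and 110, 343, 98.7, 21.2 and 75.7 at 48 h. Its arrays overlapped, and the log2 fold change was -2.33 ± 0.53 (SE, adjusted p = 0.00582). It was above the array median in 4 of the 10 arrays, so its fold rests on dim signals at 48 h. Cd5l, a macrophage-secreted protein chosen for its size of change, read 379, 476, 670, 442 and 455 at 24 h and 167, 303, 182, 198 and 292 at 48 h, and limma gave a log2 fold change of -1.10 ± 0.23 (SE, adjusted p = 0.00185). Of the 11 Kupffer cell and leukocyte markers tested, C1qb was called (9.09%), 10 had a negative sign, and the median was -0.27. C1qa (-0.88, adjusted p = 0.112) and C1qc (-0.79, adjusted p = 0.166) did not pass in limma, and the positive sign was that of Csf1r (0.27, adjusted p = 0.672). The summed signal of the 15 markers on the array was 21760 to 25890 at 24 h and 20610 to 23440 at 48 h, ranges that overlap. Most of that sum came from Cd14 (means of 11820 and 10540) and Lyz2 (7836 and 7475), so it says little about the dimmer markers. Fcgr2b, an Fc receptor of sinusoidal endothelium, was also called lower (-0.81 ± 0.15, adjusted p = 0.000763), 1 of 3 endothelial markers tested. Eng, a co-receptor of TGF-beta (0.32 ± 0.23, adjusted p = 0.575), and Kdr, a receptor of VEGF (-0.007 ± 0.19, adjusted p = 0.996), did not pass. The summed endothelial marker signals were 2121 to 3041 at 24 h and 1966 to 2444 at 48 h. In the actin fit of the 10 DMSO arrays C1qb (adjusted p = 0.319), Cd5l (-0.93, adjusted p = 0.433) and Fcgr2b (-1.10, adjusted p = 0.0769) did not pass. In these bulk samples fewer cells of a type and less RNA per cell cannot be told apart. The part of these cells in the falls of Cxcl1 or Il1rn was not tested.

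Lipoprotein genes lowered were Apoa2, Apoc1, Lcat, Apom and Lipc, 5 of 17 tested, with 0 higher (29.4% called, median -0.082). Apoa2, a structural protein of high-density lipoprotein, read 34754, 33169, 36615, 35611 and 37593 at 24 h and 14762, 16401, 16927, 14566 and 16342 at 48 h. The times did not overlap, and its log2 fold change was -1.17 ± 0.070 (SE, adjusted p = 2.46e-14). Apoc1, a small exchangeable apolipoprotein, read 43226, 43434, 43506, 38915 and 46358 at 24 h and 28784, 28220, 28818, 26985 and 28139 at 48 h, and the log2 fold change was -0.61 ± 0.076 (SE, adjusted p = 1.1e-06). Lcat, which esterifies cholesterol in plasma, read 5625, 5201, 5154, 5105 and 4909 at 24 h and 3746, 3143, 3719, 3410 and 3356 at 48 h, and limma gave a log2 fold change of -0.58 ± 0.076 (SE, adjusted p = 2.4e-06). Apom (-0.41 ± 0.071, adjusted p = 0.00025) and the hepatic lipase Lipc (-0.41 ± 0.081, adjusted p = 0.00128) fell less. Centring on medians left 5 calls, and the actin ratio as a covariate in the 10 DMSO arrays left 3.

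Enzymes that break down amino acids fell in 5 of 36 cases and rose in 0 (13.9% called, median -0.044). Aass, the first enzyme of lysine breakdown, read 4988, 4651, 4050, 3741 and 4089 at 24 h and 2191, 2456, 2430, 2967 and 2638 at 48 h, and its log2 fold change was -0.76 ± 0.094 (SE, adjusted p = 8.48e-07). Tat, the tyrosine aminotransferase induced by glucocorticoids, read 14698, 14526, 14924, 16590 and 16055 at 24 h and 11878, 10146, 10814, 10444 and 10502 at 48 h, and the log2 fold change was -0.51 ± 0.059 (SE, adjusted p = 2.19e-07). Both sets of arrays lay apart. Tdo2, which opens the tryptophan ring (-0.43 ± 0.084, adjusted p = 0.000958), Cth, the last enzyme of cysteine synthesis (-0.38 ± 0.076, adjusted p = 0.00135), and Hal, histidine ammonia-lyase (-0.61 ± 0.15, adjusted p = 0.0104), were also lower. In the actin fit of the 10 DMSO arrays 3 of the list were called. Of 9 urea cycle genes 1 was called, the ornithine carrier Slc25a15 (-0.30 ± 0.080, adjusted p = 0.0252), with overlapping arrays and a call lost without any of 6 arrays (24 h and 48 h replicates 1, 2 and 3; adjusted p up to 0.087). Cps1, the entry enzyme of that cycle, showed a log2 difference of 0.023 (adjusted p = 0.95).

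Of 18 hepatocyte transcription factors 1 fell and 0 rose (5.56% called), a share near the 4.48% of all genes that is no result about the list. It was Hnf4a, a nuclear receptor central to hepatocyte identity, which read 8802, 8610, 8485, 8499 and 9067 at 24 h and 7433, 7002, 6466, 7088 and 6491 at 48 h. The times did not overlap, and limma gave a log2 fold change of -0.34 ± 0.080 (SE, adjusted p = 0.00861). The call was lost when the probe sets of the gene were averaged (-0.12, adjusted p = 0.50) and in the actin fit of the 10 DMSO arrays (-0.32, adjusted p = 0.109). Cebpa showed a log2 difference of -0.14 (adjusted p = 0.52), Nr1i2, the xenobiotic receptor PXR, of -0.034 (adjusted p = 0.9), and Nr1i3, the receptor CAR, of -0.094 (adjusted p = 0.85). Of 16 circadian clock genes 3 were called lower (18.8%), and 0 in the actin fit of the 10 DMSO arrays, with adjusted p = 0.324 for Rora, 0.116 for Bmal1 and 0.316 for Clock. For Rora, a nuclear receptor of the clock, the averaged probe sets gave the opposite sign (0.21), and the calls of Bmal1 and Clock, the activator pair of the clock, were each lost without any of 5 arrays. For Bmal1 these were 24 h replicates 2 and 4 and 48 h replicates 1, 2 and 3 (adjusted p up to 0.11). For Clock they were 24 h replicates 3 and 4 and 48 h replicates 2, 4 and 5 (up to 0.0949). Averaging its probe sets also ended the call of Clock (-0.14, adjusted p = 0.814).

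Most called genes of the lipid synthesis lists were higher at 48 h. Scd2, a stearoyl-CoA desaturase that makes monounsaturated fatty acids, read 627, 539, 630, 807 and 598 at 24 h and 2793, 2631, 2226, 2868 and 2739 at 48 h. Its rise was the largest among called genes with arrays apart and a mean signal above the array medians at either time. The groups did not overlap, and its log2 fold change was 2.06 ± 0.12 (SE, adjusted p = 1.51e-14), or 1.12 when its probe sets were averaged (adjusted p = 2.37e-07). Its other probe set gave 0.19 (adjusted p = 0.77). Scd2 is not in the lipid synthesis lists. Of 21 fatty acid and triglyceride synthesis genes 5 rose and 0 fell (23.8% called, median 0.18). They were Pnpla3, a triglyceride-remodelling enzyme (0.65 ± 0.14, adjusted p = 0.0026), Fasn, fatty acid synthase (0.48 ± 0.13, adjusted p = 0.0214), Thrsp, a lipogenic regulator (0.42 ± 0.10, adjusted p = 0.00969), Acly, which makes cytosolic acetyl-CoA (0.30 ± 0.073, adjusted p = 0.0104), and Acaca, acetyl-CoA carboxylase (0.27 ± 0.076, adjusted p = 0.0344). The arrays of Thrsp lay apart and those of the other 4 overlapped. The call of Fasn was lost without any of 4 arrays (24 h replicates 2 and 5, 48 h replicates 1 and 4, adjusted p up to 0.0823). It was also lost when its probe sets were averaged (0.38, adjusted p = 0.222).

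Of 21 cholesterol synthesis and uptake genes 8 rose and 1 fell (42.9% called, median 0.18). Sqle, squalene epoxidase, read 7767, 6590, 8048, 6779 and 6996 at 24 h and 11332, 9341, 9554, 8929 and 10270 at 48 h. All 48 h arrays were above all 24 h arrays, and the log2 fold change was 0.45 ± 0.076 (SE, adjusted p = 0.000193). Idi1, isopentenyl diphosphate isomerase, read 11376, 12336, 12979, 13549 and 11304 at 24 h and 14759, 14834, 15532, 15390 and 15531 at 48 h, and limma gave a log2 fold change of 0.31 ± 0.070 (SE, adjusted p = 0.00555). Insig1, which holds the sterol sensor in the endoplasmic reticulum, read 16341, 16517, 16930, 17882 and 15810 at 24 h and 21235, 19675, 19652, 20344 and 20741 at 48 h, and its log2 fold change was 0.28 ± 0.055 (SE, adjusted p = 0.000916). Lss (0.35 ± 0.10, adjusted p = 0.0344), Acat2 (0.33 ± 0.086, adjusted p = 0.0216), Msmo1 (0.27 ± 0.077, adjusted p = 0.0357), Sc5d (0.23 ± 0.069, adjusted p = 0.0461) and Nsdhl (0.21 ± 0.059, adjusted p = 0.0344) were the other members called higher. Tm7sf2, a sterol reductase, was lower (-0.36 ± 0.069, adjusted p = 0.000804). The call of Idi1 was lost when its probe sets were averaged (0.24, adjusted p = 0.0687). With arrays centred on their medians 1 of the list was called higher, and with the actin ratio as a covariate in the 10 DMSO arrays 0 were. The fold of Sqle in that fit was 0.46 on the log2 scale (adjusted p = 0.0989). The counts were 1 and 0 for the fatty acid list, and 8 and 6 for the lists when the covariate was fitted over all 30 arrays.

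Because genes of cholesterol synthesis are known targets of the SREBP factors, which act with NF-Y at CCAAT boxes, the promoters of the members called higher were read. RefSeq promoters on GRCr8, from 250 bases before to 50 after the gene start, were held for 7 of the 8, all but Sqle. The 3 motifs searched on both strands were CCAAT, the E-box CACGTG and a sterol element written TCACNCCAC, and they share no overlapping matches in these windows. CCAAT or its reverse complement was present in 6 of the 7 against 37.7% of 27457 rat promoters, CACGTG in 2 against 6.65%, and TCACNCCAC in 0 against 1.13%. A match is only a run of letters. The sequences of Idi1 (chr17:66547475-66547774, minus strand), Insig1 (chr4:8057720-8058019, minus strand) and Acat2 (chr1:50100590-50100889, plus strand) are shown 5' to 3' on the gene's strand to display promoters with 2 CCAAT matches, with 1 CCAAT and 1 E-box match, and with none. Capitals mark the matches, and a CCAAT on the other strand reads ATTGG.
Idi1: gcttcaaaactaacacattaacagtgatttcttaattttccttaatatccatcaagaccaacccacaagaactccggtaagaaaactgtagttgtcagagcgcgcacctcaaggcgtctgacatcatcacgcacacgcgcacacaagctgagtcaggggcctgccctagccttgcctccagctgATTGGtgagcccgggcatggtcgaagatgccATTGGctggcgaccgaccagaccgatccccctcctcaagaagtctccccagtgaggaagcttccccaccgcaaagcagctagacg
Insig1: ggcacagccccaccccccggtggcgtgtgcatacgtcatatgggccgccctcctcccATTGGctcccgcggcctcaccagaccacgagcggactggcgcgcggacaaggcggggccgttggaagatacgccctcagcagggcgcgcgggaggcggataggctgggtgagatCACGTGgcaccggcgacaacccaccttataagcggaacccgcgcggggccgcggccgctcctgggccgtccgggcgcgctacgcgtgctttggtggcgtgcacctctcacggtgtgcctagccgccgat
Acat2: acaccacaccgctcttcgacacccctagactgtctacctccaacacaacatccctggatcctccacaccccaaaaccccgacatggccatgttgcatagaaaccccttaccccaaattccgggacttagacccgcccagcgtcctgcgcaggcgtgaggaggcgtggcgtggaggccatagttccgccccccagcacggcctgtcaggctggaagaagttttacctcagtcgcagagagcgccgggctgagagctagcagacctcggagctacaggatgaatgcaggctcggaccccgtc

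Genes of fatty acid oxidation and targets of PPAR-alpha, the fatty acid-sensing receptor, rose in 8 of 25 cases and fell in 1 (36% called, median 0.18). Cyp4a1, a fatty acid omega-hydroxylase, read 6669, 5705, 5725, 7174 and 5735 at 24 h and 10812, 9533, 9667, 11264 and 10785 at 48 h. The arrays lay apart, and the log2 fold change was 0.75 ± 0.092 (SE, adjusted p = 8.48e-07). Vnn1, a pantetheinase, read 4796, 4785, 4590, 5234 and 4508 at 24 h and 6610, 7357, 7056, 7956 and 7355 at 48 h, and limma gave a log2 fold change of 0.60 ± 0.083 (SE, adjusted p = 8.47e-06). Fgf21, a hormone of fasting (0.42 ± 0.12, adjusted p = 0.0435), the carnitine carrier Slc25a20 (0.28 ± 0.072, adjusted p = 0.0176), Acadm (0.27 ± 0.077, adjusted p = 0.0342), Acaa2 (0.25 ± 0.077, adjusted p = 0.0499), Eci1 (0.21 ± 0.058, adjusted p = 0.0261) and the regulator Creb3l3 (0.23 ± 0.058, adjusted p = 0.0124) rose less. The call of Creb3l3 was lost without 48 h replicate 1 (adjusted p = 0.0585). Pdk4, a kinase that restrains pyruvate oxidation and is a classical target of the same receptor, was lower (-0.47 ± 0.086, adjusted p = 0.000424), a call lost when its probe sets were averaged (-0.25, adjusted p = 0.10). Cpt1a, the entry enzyme of mitochondrial oxidation, showed a log2 difference of -0.18 (adjusted p = 0.68). The higher calls numbered 2 with median-centred arrays, 4 with the actin ratio as a covariate over all 30 arrays and 3 with it in the 10 DMSO arrays.

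**Figure D3:**
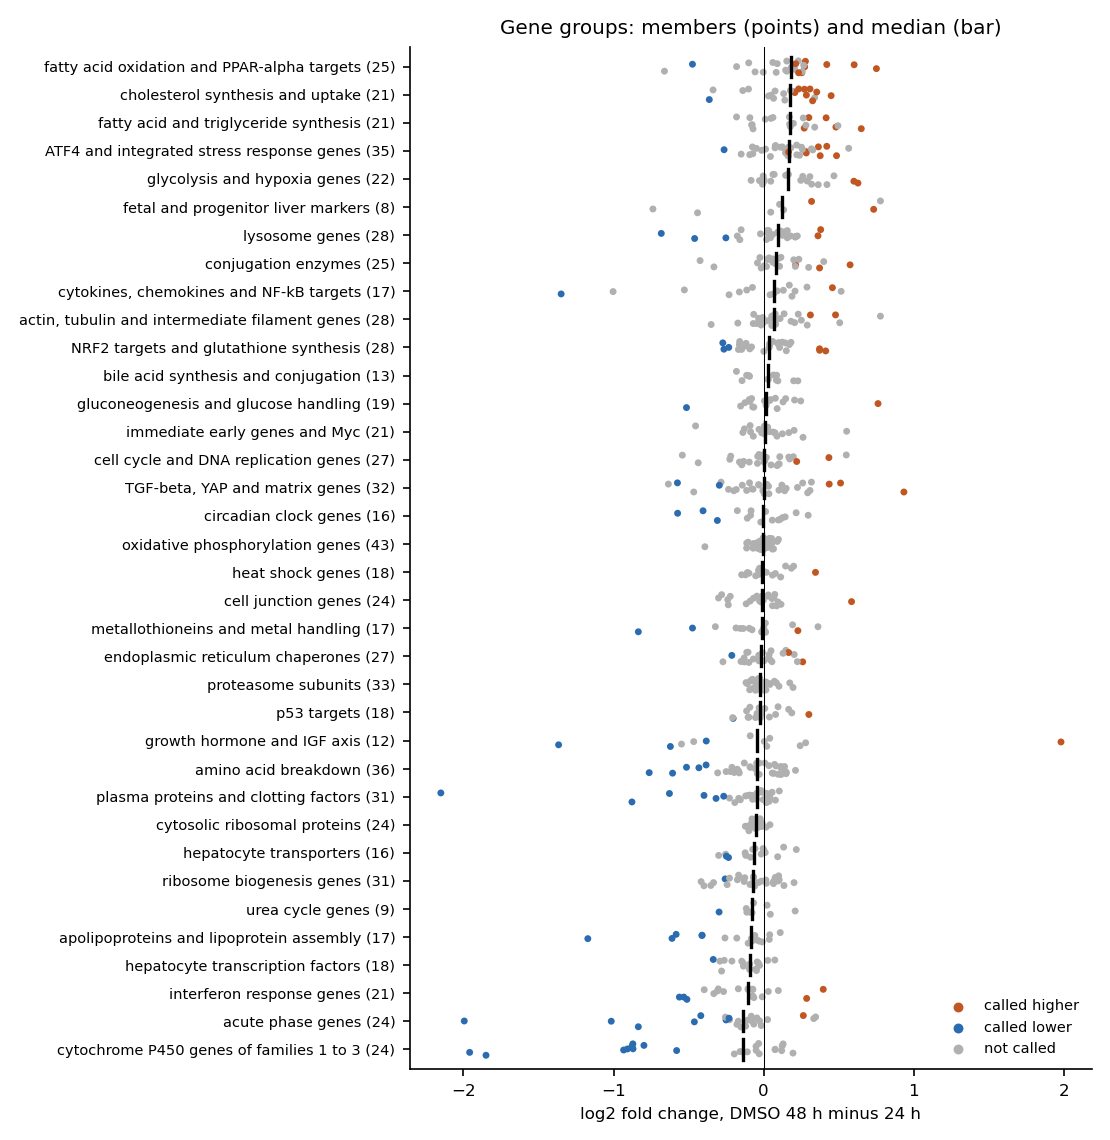
Log2 fold change of DMSO wells at 48 h minus 24 h for the tested members of 36 gene groups, with the number tested in brackets. Points are genes (orange called higher, blue called lower, grey not called) and black bars the group medians, which run from -0.14 in the P450 genes to 0.18 in the fatty acid oxidation genes.

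Some single genes of energy metabolism also changed. Ldhb, the lactate dehydrogenase subunit of oxidative tissues, read 1089, 1127, 1372, 1568 and 1337 at 24 h and 2906, 3262, 2918, 2818 and 2835 at 48 h, and its log2 fold change was 1.19 ± 0.10 (SE, adjusted p = 1.67e-10). Slc25a4, the heart and muscle form of the mitochondrial adenine nucleotide carrier, read 10958, 10811, 13056, 12168 and 12607 at 24 h and 24792, 22182, 21612, 22606 and 22784 at 48 h. Both genes had arrays that lay apart, as the rule that chose them required. For Slc25a4 the log2 fold change was 0.94 ± 0.096 (SE, adjusted p = 1.79e-08). Gys2, liver glycogen synthase (0.76 ± 0.17, adjusted p = 0.00383), and Pfkp, the platelet form of phosphofructokinase (0.60 ± 0.092, adjusted p = 4.25e-05), rose. In the actin fit of the 10 DMSO arrays Pfkp passed (0.66, adjusted p = 0.00351) and Gys2 did not (0.31, adjusted p = 0.345). Of 22 glycolysis and hypoxia genes 2 rose and 0 fell (9.09% called, against 4.48% of all genes, median 0.16). A positive sign was held by 18 of the 22, and 10 had an unadjusted p under 0.05 in limma. Over all genes 1602 of 10222 reached that level. Of 43 oxidative phosphorylation genes limma called 0, with 1 at an unadjusted p under 0.05.

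ATF4 and integrated stress response genes, which include enzymes of serine synthesis, rose in 7 of 35 cases and fell in 1 (22.9% called, median 0.17). Psat1, which makes phosphoserine, read 14287, 14568, 13713, 13320 and 14177 at 24 h and 19803, 19071, 18914, 20451 and 19844 at 48 h. The arrays did not overlap, and limma gave a log2 fold change of 0.49 ± 0.064 (SE, adjusted p = 2.86e-06). Psph, the last enzyme of serine synthesis (0.38 ± 0.085, adjusted p = 0.00488), Phgdh, its first (0.28 ± 0.071, adjusted p = 0.0148), and Chac1, which degrades glutathione (0.28 ± 0.070, adjusted p = 0.0125), rose, while Slc3a2, an amino acid transporter subunit and also a target, fell (-0.26 ± 0.048, adjusted p = 0.000423). With median-centred arrays 1 of the list was called higher, and with the actin ratio as a covariate in the 10 DMSO arrays 2 were.

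Acta1, skeletal muscle alpha-actin, read 2776, 2667, 3493, 2555 and 2972 at 24 h and 8467, 11555, 10187, 7160 and 8774 at 48 h. Every 48 h array was above every 24 h array, and its log2 fold change was 1.66 ± 0.15 (SE, adjusted p = 1.92e-09). It was chosen for its size of change among called genes with arrays apart. Of 28 listed actin, tubulin and intermediate filament genes 2 rose (7.14% called). This share is near the 4.48% of all genes, so the calls are no result about the list. Among the 2 was the tubulin Tubb6 (0.31 ± 0.066, adjusted p = 0.0026). Tgfb2, a transforming growth factor, read 680, 526, 798, 838 and 687 at 24 h and 1239, 1715, 1305, 1108 and 1361 at 48 h, and the log2 fold change was 0.93 ± 0.15 (SE, adjusted p = 0.000106). In its list of 32 TGF-beta, YAP and matrix genes 3 rose and 2 fell (15.6% called), the falls including Fn1, fibronectin (-0.30 ± 0.068, adjusted p = 0.00647), with overlapping arrays. Ggt1, gamma-glutamyltransferase, a fetal liver enzyme, read 666, 439, 595, 692 and 709 at 24 h and 1132, 976, 914, 1147 and 934 at 48 h, and limma gave a log2 fold change of 0.73 ± 0.12 (SE, adjusted p = 8.7e-05). In the actin fit of the 10 DMSO arrays Acta1 and Tgfb2 passed (1.87, adjusted p = 2.1e-05, and 1.07, adjusted p = 0.0406). Ggt1 (0.86, adjusted p = 0.117), Tubb6 (0.31, adjusted p = 0.125) and Fn1 (-0.26, adjusted p = 0.343) did not.

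Epcam, an adhesion protein of bile duct and progenitor cells, read 9912, 10328, 10576, 9447 and 9495 at 24 h and 12848, 12512, 12294, 11841 and 12546 at 48 h. Its arrays lay apart, and its log2 fold change was 0.32 ± 0.057 (SE, adjusted p = 0.000388). The tight junction gene Cldn7 rose too (0.59 ± 0.16, adjusted p = 0.023), a call lost without any of 5 arrays (24 h replicates 3 and 5, 48 h replicates 3, 4 and 5; adjusted p up to 0.0825). Neither passed in the actin fit of the 10 DMSO arrays (Epcam 0.32, adjusted p = 0.0819; Cldn7 0.41, adjusted p = 0.403). These were 2 of 4 cholangiocyte markers tested (50% called, against 4.48% of all genes). All 4 had a positive sign, and the median was 0.45. The summed signal of the 7 cholangiocyte markers was 11140 to 12620 at 24 h and 14640 to 15690 at 48 h without overlap. Most of that sum came from Epcam (means of 9952 and 12410), so it says little about the other markers. The duct markers Krt7, Cftr and Spp1 were below the array median in all 10 arrays. In limma Krt19 (0.78, adjusted p = 0.42) and Sctr (0.19, adjusted p = 0.89) did not pass. For Afp, the fetal albumin homologue, the log2 fold change was 0.13 (adjusted p = 0.48).

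The growth hormone and IGF list held 1 rise and 3 falls among 12 (33.3% called). Igfbp3, the main carrier of IGF in plasma, read 118, 627, 599, 156 and 131 at 24 h and 932, 912, 1425, 717 and 998 at 48 h. The 24 h wells were uneven. All lay below the 48 h wells, which the rule for the largest changes required, and the log2 fold change was 1.98 ± 0.41 (SE, adjusted p = 0.00188). Averaged probe sets gave 1.21 (adjusted p = 0.00265). The call did not pass with the actin ratio as a covariate in the 10 DMSO arrays (2.01, adjusted p = 0.277). Igfbp4, another binding protein (-0.62 ± 0.13, adjusted p = 0.00182), and Obp3, an odorant-binding protein of the alpha-2u-globulin family (-0.38 ± 0.073, adjusted p = 0.000804), fell. In that fit Obp3 passed (-0.40, adjusted p = 0.0317) and Igfbp4 did not (-0.53, adjusted p = 0.288). Igfbp2 had the largest fall of the list (-1.37, adjusted p = 0.0478 in limma). Its call was lost without any of 8 of the 10 DMSO arrays (adjusted p up to 0.136). Igf1 itself showed a log2 difference of 0.0042 (adjusted p = 0.99).

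Several large changes lay outside the lists. Clec14a, a C-type lectin known from endothelium, read 866, 1055, 738, 862 and 630 at 24 h and 2025, 1927, 1867, 2301 and 2010 at 48 h, and limma gave a log2 fold change of 1.30 ± 0.14 (SE, adjusted p = 9.49e-08). Dpp7, a lysosomal dipeptidase, read 1065, 1260, 1389, 1116 and 1193 at 24 h and 2563, 2626, 2309, 2239 and 2193 at 48 h, and its log2 fold change was 0.99 ± 0.092 (SE, adjusted p = 1.92e-09). Among the falls, Car3, carbonic anhydrase 3, read 1680, 2230, 2583, 2275 and 2202 at 24 h and 833, 907, 980, 1025 and 905 at 48 h, and the log2 fold change was -1.23 ± 0.13 (SE, adjusted p = 8.01e-08). Rup2, named as a urinary protein, read 70119, 69540, 72693, 65621 and 82526 at 24 h and 31569, 34216, 34114, 27605 and 27153 at 48 h, and limma gave a log2 fold change of -1.22 ± 0.093 (SE, adjusted p = 1.32e-11). The trypsin inhibitor-like Spink1l (-1.22 ± 0.084, adjusted p = 8.56e-13) and the proteoglycan Gpc4 (-0.96 ± 0.073, adjusted p = 1.32e-11) also fell. These 6 genes were taken by a rule that required the arrays of the times not to overlap. Their non-overlap is therefore no further result, and it fixes the same direction in all 5 array runs.

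Other rises of like size were those of Susd3 (2.04 ± 0.51, adjusted p = 0.0126), Duoxa1, a maturation factor of the dual oxidase (1.27 ± 0.23, adjusted p = 0.000468), Tsx (1.22 ± 0.19, adjusted p = 5.3e-05), Slc2a13, a myo-inositol transporter (1.15 ± 0.25, adjusted p = 0.00336), Arxes2 (1.06 ± 0.23, adjusted p = 0.00275) and Cflar, an inhibitor of caspase 8 (1.01 ± 0.21, adjusted p = 0.00212). The arrays of each lay apart, as the rule that chose them required. Averaging the probe sets of a gene ended the call of Cflar (0.50, adjusted p = 0.145) and lowered Slc2a13 to 0.72 (adjusted p = 0.00756). Scamp5 (1.41 ± 0.42, adjusted p = 0.0438) and Zbtb40 (-1.37 ± 0.36, adjusted p = 0.0218) were called with arrays apart but lost the call on leaving out single arrays. For Scamp5 these were 24 h replicate 1, without which its log2 fold change was 0.72, and every 48 h replicate in turn. For Zbtb40 they were 24 h replicate 3 and 48 h replicates 3 and 4 (adjusted p up to 0.0937).

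Iron and lysosome genes moved in both directions. Tfrc, the transferrin receptor (-0.47 ± 0.081, adjusted p = 0.000199), fell beside Hamp, and Slc40a1, the iron exporter ferroportin, rose (0.23 ± 0.057, adjusted p = 0.0128), though not without 48 h replicate 5 (adjusted p = 0.0676). Of 28 lysosome genes 3 rose and 3 fell (21.4% called), with Gusb, a glucuronidase, higher (0.36 ± 0.071, adjusted p = 0.00109) and Scarb2, a lysosomal membrane protein (-0.46 ± 0.065, adjusted p = 1.21e-05), and Ctss, a cathepsin of antigen-presenting cells (-0.68 ± 0.14, adjusted p = 0.00209), lower. Of 28 NRF2 and glutathione genes 3 rose and 3 fell (21.4% called), with Nfe2l2, NRF2 itself (-0.27 ± 0.062, adjusted p = 0.00511), among the falls and Aldh1a1 (0.41 ± 0.083, adjusted p = 0.00158) and Gpx2 (0.37 ± 0.082, adjusted p = 0.004) among the rises. With median-centred arrays the calls of Slc40a1, Nfe2l2 and Gpx2 were lost, and with the actin ratio as a covariate in the 10 DMSO arrays those of Tfrc, Slc40a1, Gusb, Scarb2, Ctss, Nfe2l2, Aldh1a1 and Gpx2 were lost.

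Genes of the basic cell machinery made few calls. In limma 0 of 24 cytosolic ribosomal proteins were called (0 at an unadjusted p under 0.05), as were 0 of 33 proteasome subunits (1 at that level) and 0 of 21 immediate early genes (4 at that level). Of 31 ribosome biogenesis genes 1 was called, of 18 heat shock genes 1 and of 27 cell cycle genes 2. At an unadjusted p under 0.05 were 10, 5 and 3 of them, against 1602 of all 10222 genes. The called shares were near or below that of all genes (4.48%), so the calls are no result about these lists. The unadjusted shares of the ribosome biogenesis and heat shock lists were larger than that of all genes, and no list was tested. Jund, an immediate early transcription factor, showed a log2 difference of 0.089 (adjusted p = 0.57), and the ribosomal protein Rpl3 of -0.051 (adjusted p = 0.84).

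The treated wells give a change over the same day from arrays that share none with the vehicle comparison. All the comparisons nevertheless used 1 estimate of spread per gene from the same fit, so their calls are not independent. Over all 10222 genes the change was positive for 5119 at 3 uM and for 5333 at 100 uM. Of the 263 genes higher in DMSO wells, 250 had the same sign at 3 uM methapyrilene and 150 were also called higher there (57.0%, against 7.19% of all genes called higher at that dose). At 100 uM 224 had the same sign and 106 were called higher (40.3%, against 5.04%). Of the 195 lower genes, 192 and 175 kept the sign and 129 (66.2%, against 9.61%) and 99 (50.8%, against 4.46%) were called lower. Called the same way in all 3 kinds of well were 79 higher and 71 lower genes. Across the 458 genes the correlation of the changes was 0.914 with 3 uM and 0.802 with 100 uM, and across all 10222 genes it was 0.430 and 0.348, as descriptions across genes that are not independent. At 3 uM and 24 h replicates 1, 2 and 3 had actin ratios up to 5.30, and with replicates 4 and 5 alone 279 rather than 1717 genes were called over time at that dose.

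**Figure D4:**
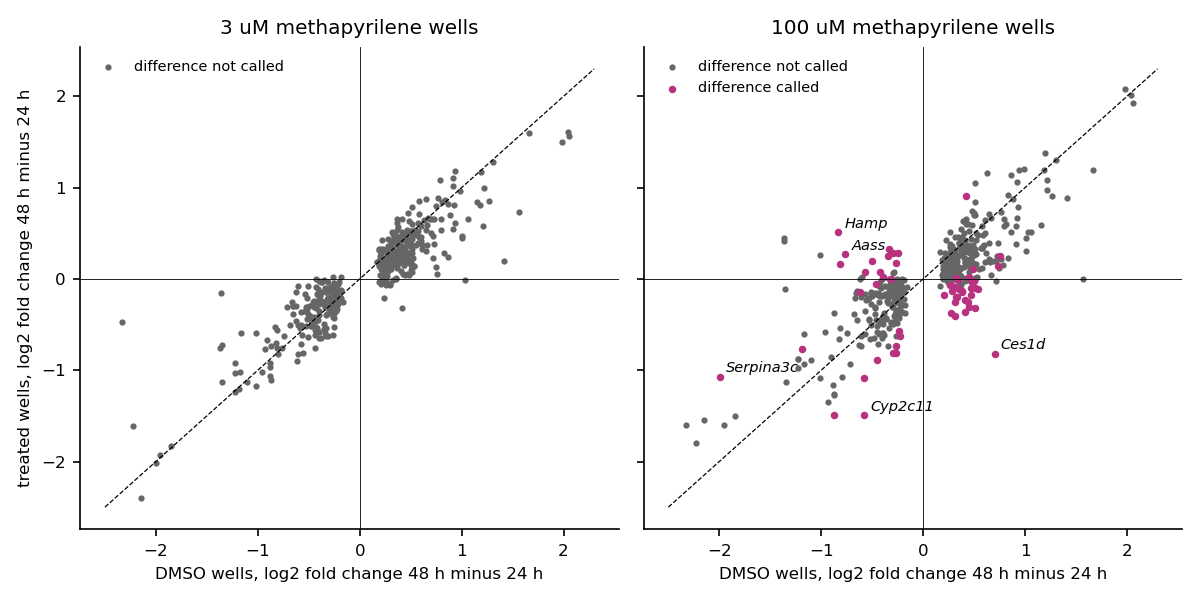
Log2 fold change from 24 to 48 h in wells with 3 uM (left) and 100 uM methapyrilene (right) against that in DMSO wells, for the 458 genes called in DMSO wells. Dashed lines mark equal change, and pink points are the 58 genes whose change at 100 uM differed from that in DMSO at an adjusted p under 0.05, with none at 3 uM.

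Several of the largest changes had the same direction in the treated wells. Cyp3a2 changed by -1.93 at 3 uM and -1.597 at 100 uM, Cyp2c13 by -1.83 and -1.50, Serpina6 by -2.40 and -1.55, Apoa2 by -1.02 and -0.93, Scd2 by 1.56 and 1.92, Acta1 by 1.5996 and 1.19, Clec14a by 1.28 and 1.30 and Ldhb by 1.17 and 1.38, each called in limma. Sqle was called in neither, at 0.18 (adjusted p = 0.1) and 0.081 (adjusted p = 0.61).

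The difference of the time changes was tested as an interaction. Between 3 uM and DMSO wells limma called 0 of 10222 genes (0%), with 1256 at an unadjusted p under 0.05, and array weights gave 1616 calls. Between 100 uM and DMSO wells 169 were called (1.65%), 58 of them among the 458. Hamp, which fell in DMSO wells, changed by 0.51 at 100 uM, a difference of 1.34 ± 0.20 (SE, adjusted p = 0.000113). Aass changed by 0.28 at 100 uM, a difference of 1.04 ± 0.13 (adjusted p = 7.59e-06). The fall of Cyp1a2 was deeper at 100 uM (-1.49), by -0.62 ± 0.14 (adjusted p = 0.0112), as was that of Lcat (-1.08), by -0.50 ± 0.11 (adjusted p = 0.0090). Idi1 changed by -0.25 at 100 uM against its rise in vehicle, a difference of -0.56 ± 0.10 (adjusted p = 0.00125). The fall of Serpina3c was smaller at 100 uM (-1.07), by 0.92 ± 0.14 (adjusted p = 0.000167).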

How the data were processed

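Expression in 30 cultures was measured on rat whole-genome arrays, and 10 of these, 5 DMSO wells at 24 h and 5 at 48 h, make up the comparison. The deposited values are intensity on a linear scale, made with MAS5 per the submitters' processing notes; its version is not given in the sources used here. Of 31099 probe sets 20826 carried 1 gene symbol in the platform annotation and 436 several, 9780 had none and 57 were controls; only the first kind was used. Signals were log2 transformed without a pseudocount. A gene was tested where its brightest probe set exceeded the array's median on at least 5 of 30 arrays (10222 genes).

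Group means were fitted to all 30 arrays with limma 3.58.1 in R 4.3.3 (24 residual degrees of freedom, eBayes with trend, two-sided), with calls at a Benjamini-Hochberg adjusted p under 0.05 over all genes. No test was made of a list. Array runs were taken from consecutive array numbers in the titles; the labels name no batch. The rule for naming took the 15 largest called changes each way with arrays apart, the 3 largest with overlap, and up to 4 called members of each of 41 lists by adjusted p, or the 2 brightest; further called or uncalled list members were named after their values were seen. Arrays, lists and rule were chosen with earlier results of these data known. Alternatives changed scaling, filter, pseudocount (16), probe sets, arrays, variance model, run and array-number terms, actin ratio, array weights, thresholds and each array in turn; 2 fits of the 10 DMSO arrays, with the actin ratio or the run, were added after seeing the data. In data simulated for the DMSO comparison over 10222 genes, 65% of 1.5-fold and 91% of 2-fold changes were recovered with 8 false calls. The number of arrays limits the precision.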

Additional observations from a re-analysis of the deposited data

Results flagged for a closer look

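Some named genes had 1 DMSO array far from the other 4 of its time, by a gap above 0.71 of the group's range. This occurred in 13 of 256 groups of 5 examined, and chance alone gives about 1 in 20. The low arrays were Scamp5 in 24 h replicate 1 (24.5), Cflar in 24 h replicate 2 (164.9), C1qb in 24 h replicate 1 (271.2), Esm1 in 24 h replicate 4 (332.9), Gsta3 in 24 h replicate 3 (20989), Sgk2 in 48 h replicate 4 (79.9), Mdm2 in 48 h replicate 5 (2998.2) and Scarb2 in 48 h replicate 5 (4546.1). The high arrays were Tdo2 in 24 h replicate 5 (60366.3), Creb3l3 in 24 h replicate 3 (8204.8), Ldhb in 48 h replicate 2 (3262.4), Gstp3 in 48 h replicate 1 (217.0) and Herpud1 in 48 h replicate 1 (16110.5). No array held more than 2 of them. Without the outlying array the call of Scamp5 was lost (log2 fold change 0.72, adjusted p = 0.114), as was that of Sgk2 (-0.63, adjusted p = 0.166), Mdm2 (-0.16, adjusted p = 0.184) and Herpud1 (0.13, adjusted p = 0.16). The loss was not particular to that array. Of the 10 DMSO arrays, leaving out any of 6 ended the call of Scamp5 and any of 6 that of Sgk2. For Herpud1 it was any of 8 and for Mdm2 any of 9.

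For 14 named genes the change from 24 to 48 h at 100 uM methapyrilene differed from that in DMSO wells by limma's interaction test. The difference on the log2 scale, 100 uM minus DMSO, was positive for Hamp (1.344), Aass (1.039), Serpina3c (0.925), Slc25a15 (0.586), Serpina3l (0.418) and Scarb2 (0.400), all lower with time in DMSO wells. It was negative for Cyp1a2 (-0.616) and Lcat (-0.497), which fell in DMSO wells. It was also negative for Idi1 (-0.557), Psph (-0.525), Cyp4a1 (-0.497), Tubb6 (-0.403), Psat1 (-0.380) and Epcam (-0.306), which rose there. None of the named genes differed between 3 uM and DMSO wells by the same test, where 0 of 10222 genes were called and 1256 had an unadjusted p under 0.05.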

How the results depend on the processing

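The 458 calls (263 higher, 195 lower) became 243 (127 and 116) with arrays centred on their medians, 241 (132 and 109) at an adjusted p under 0.01 and 104 (57 and 47) at 1.5-fold or more. Array weights gave 692, with 301 lower. The actin ratio as a covariate in the 10 DMSO arrays alone, chosen after seeing the data, gave 76 (40 and 36). In that fit all 458 genes kept their sign and the median standard error was 0.117 against 0.0831; 72 of the 458 were called again. Leaving out each DMSO array in turn gave 329 to 431 calls, and the array run as a block 428, with 415 of the 458 again. At 3 uM the 1717 calls became 279 with 24 h replicates 4 and 5 alone, 169 with the actin covariate, 3664 with weights, 804 at 0.01 and 194 at 1.5-fold. At 100 uM the 971 calls became 566 with median centring, 495 at 0.01 and 178 at 1.5-fold. The 0 interaction calls at 3 uM became 1616 with weights. The 169 at 100 uM became 58 with median centring, 266 with those replicates alone, 261 with weights, 63 at 0.01 and 67 at 1.5-fold. The cause of these shifts was not tested, except that stricter thresholds call fewer genes. Rora turned to 0.21 when its probe sets were averaged.

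Of the 116 named genes called, 85 kept the call whichever array was left out, 82 with median centring, 37 with the actin covariate in the 10 DMSO arrays and 34 under every alternative.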
